A study of Homo sapiens with 16 samples.

Results

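DU145 cells given lactate together with I-BET762 were compared with control DU145 cells across all expressed genes. DU145 is an established human prostate cancer line, and I-BET762 is a small molecule that occupies the bromodomains of BET proteins. The comparison used 8 of the 16 libraries of the series: 4 given both treatments and 4 control libraries. The remaining libraries, 4 given lactate alone and 4 given I-BET762 alone, enter only where the single treatments are set beside the combination. Of 64792 gene identifiers in the deposited counts, 14036 passed the filter on low counts and were tested. The labels call the replicates independent without saying what was repeated, so the p-values measure the spread between these samples. Neither a dose nor a duration of treatment is given, and all values come from 1 cell line. For the 4 libraries given both treatments the cell line field shows other line numbers than DU145, and their titles, which say DU145, were followed.

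Lactate is the end product of glycolysis and is carried across the plasma membrane by the monocarboxylate transporters together with protons. Inside the cell lactate dehydrogenase turns it back to pyruvate, which can feed the mitochondria, and lactate can also be attached to histone lysines. BET proteins read acetylated histones at promoters and enhancers and bring in the elongation factor P-TEFb, whose kinase is CDK9, and BET inhibitors displace them from chromatin. HEXIM1, which holds P-TEFb in an inactive complex, is a gene known to rise when BET proteins are inhibited.

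HEXIM1 was examined first because it bears on the inhibitor labels. The gene (ENSG00000186834, chromosome 17, 45148502 to 45152101, plus strand in GRCh38) stood at 143.6, 157.7, 116 and 127.2 CPM in the libraries given both treatments, against 74.9, 135.4, 69.3 and 77.6 CPM in the control libraries. CPM, the read count relative to the scaled library size, is the unit of level throughout. The library labelled control replicate 2 lay within the range of the treated libraries, while the other 3 control libraries lay below all of them. HEXIM1 was higher with both treatments (log2 fold change 0.61 ± 0.19 (SE), adjusted p = 0.0282, edgeR's quasi-likelihood test with Benjamini-Hochberg adjustment over all genes tested, as for every adjusted p below). Without control replicate 2 the log2 fold change was 0.86 (adjusted p = 0.000397). The call was lost when control replicate 1, 3 or 4, or replicate 1, 2 or 4 of the treated libraries, was left out (adjusted p between 0.0506 and 0.0854). For H2BC5, which encodes a histone H2B, control replicate 2 stood at 27.7 CPM and the other controls at 14.9 to 19.1 CPM, with 29.9 to 37 CPM with both treatments. For TNFAIP3 it stood at 43.9 CPM, among the 33 to 46.4 CPM of the libraries given both treatments, with 70.7 to 92 CPM in the other controls. In the scaling over all 16 libraries, I-BET762 replicate 2 ran the opposite way, at 89.6 CPM for HEXIM1 against 113.3 to 148.8 CPM in the other I-BET762 libraries, and at 15.3 CPM for H2BC5 against 36 to 39.7 CPM. In HEXIM1 and H2BC5 both libraries numbered 2 went against their labels. Whether the labels are right was not tested, and both were kept as given. All results below include the library labelled control replicate 2, and some counts are also given without it.

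Libraries given both treatments held 14358751 to 14641934 counts, and control libraries 13300345 to 15867437. The defining luminal marker KLK3, prostate-specific antigen, had at most 1 count in a library, and the epithelial keratins KRT8, KRT18 and KRT7 were abundant. Of 11 leukocyte markers 1 passed the filter, with a summed level of 2.36 to 3.06 CPM with both treatments and 1.11 to 2.89 CPM in control; PTPRC had at most 1 count in a library, and CD3E and MS4A1 were at 0. Of 10 fibroblast markers 2 passed, ACTA2 and COL1A1, both higher, and the summed level was 7.18 to 12.5 CPM with both treatments and 4.88 to 5.98 CPM in control, with DCN and LUM at 0. The part of such cells in the results was not tested. Neuroendocrine markers summed to 148 to 179 CPM with both treatments and 66.5 to 77 CPM in control, mostly through the glycolytic enzyme ENO2, and CHGA and INSM1 were at 0. Mitochondrial transcripts took 4 ± 0.62% of the counts with both treatments and 3.38 ± 0.33% in control (SD, n = 4 each; exact permutation test, two-sided, p = 0.2571). Bulk libraries give relative levels, so fewer cells of a type and less RNA per cell cannot be told apart.

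With both treatments 4709 of the 14036 genes (33.5%) changed, 2661 (19%) higher and 2048 (14.6%) lower, at an adjusted p under 0.05. The counts of gene lists below are read against these shares, and a count near them does not set a list apart. Most changes were moderate: the median log2 fold change was 0.7 among the genes that rose and -0.42 among those that fell. At least 2-fold changes numbered 699 rises and 144 falls, and at least 4-fold changes 59 rises and 7 falls. The libraries of the 2 groups did not overlap in 4421 genes (31.5%), 2454 (17.5%) higher and 1967 (14%) lower. The first principal component held 57.1% of the variance and separated the groups. Without control replicate 2, 5315 of 14289 genes changed (37.2%), 2809 (19.7%) higher and 2506 (17.5%) lower. These included 4374 (92.9%) of the 4709 genes, and all 4709 kept their sign. Leaving out replicate 4 of the treated libraries gave 3188 genes, 1933 higher and 1255 lower, so the number of falls depended on that library by more than 1.5 times. Without control replicate 1, 3 or 4 the totals were 3762, 3666 and 4604. Without treated replicate 1, 2 or 3 they were 4064, 3468 and 4324. List counts without 1 of these libraries are read against the lower totals.

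**Figure D1:**
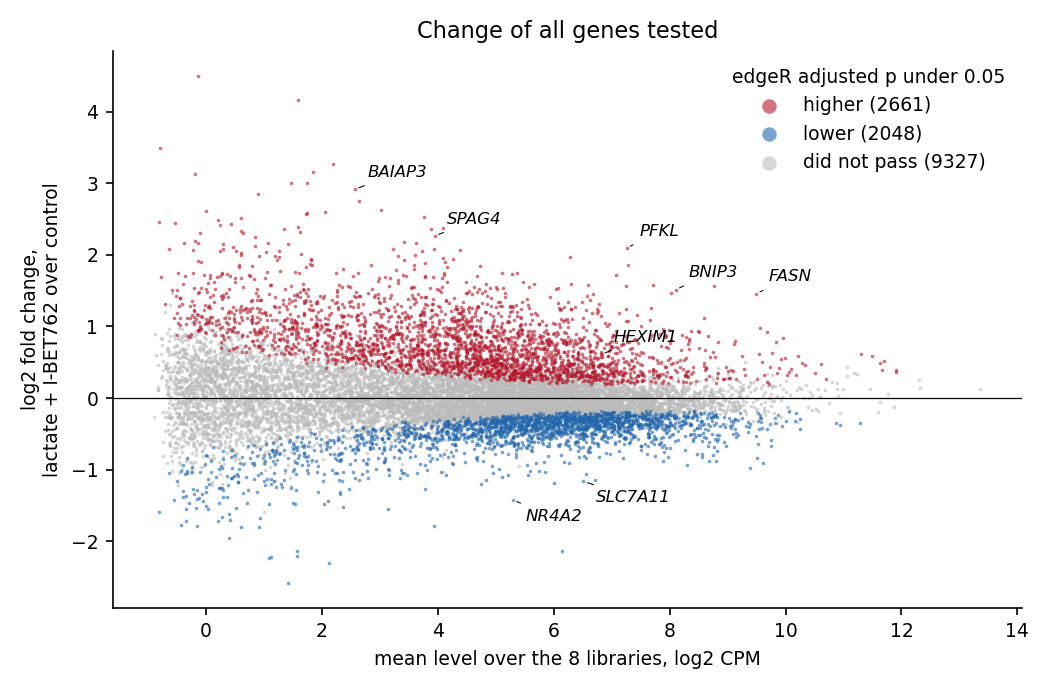
Log2 fold change of lactate plus I-BET762 over control (vertical) against the mean level over the 8 libraries in log2 CPM (horizontal), 1 point per gene tested. The 2661 genes that rose reach larger fold changes than the 2048 that fell.

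The direction of change followed the GC content of the transcripts. Genes that rose had a median GC content of 59.4%, those that fell 43%, and all tested genes 48%. Within each library, the Spearman correlation across genes between GC content and the deviation from the mean of the 8 libraries was 0.38, 0.48, 0.21 and 0.5 in the libraries given both treatments, against -0.36, -0.32, -0.54 and -0.19 in the control libraries (exact permutation test over libraries, two-sided, p = 0.02857, the smallest possible with 4 against 4); genes are not independent replicates. A correction for GC content in each library left 3426 changed genes (24.4%), of which 1598 (11.4% of genes tested) were higher and 1828 (13%) lower, so the share of rises among the calls was 46.6% instead of 56.5%. Of the 4709 genes 2557 (54.3%) were also called after it. With the replicate number as a block besides, 4619 genes changed (32.9%), 2149 (15.3%) higher and 2470 (17.6%) lower, and with the block alone 6249 (44.5%), 3374 (24%) higher and 2875 (20.5%) lower. The trend runs with the groups, so a technical source and a response of GC-rich genes cannot be told apart. Counts after the correction with the block are given below where the total moved by more than 1.5 times or the balance of rises and falls turned.

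**Figure D2:**
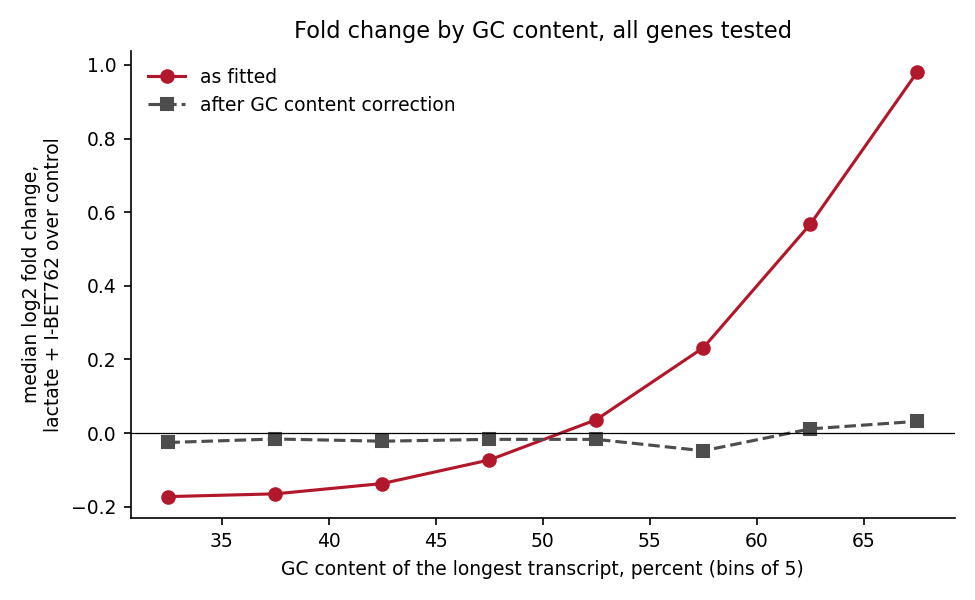
Median log2 fold change of lactate plus I-BET762 over control (vertical) of all tested genes in bins of 5% GC content (horizontal), as fitted and after GC content correction. As fitted, the medians run from -0.17 in the bin of 30 to 35% to 0.98 in the bin of 65 to 70%, and after the correction they stay between -0.05 and 0.03.

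Most genes of the hypoxia response were higher with both treatments. This program is driven by the hypoxia-inducible factors, which bind a short core sequence near their target genes and are kept low by the prolyl hydroxylases EGLN1 and EGLN3. Of 24 list members 23 were tested, 18 were higher and 1 was lower, with a median log2 fold change of 0.79 against 0 for all genes tested. The counts without control replicate 2 were the same, and after GC content correction with the block 19 were higher and 1 lower. The promoters of 3 members with the smallest p are shown because these genes rose together; each runs from 250 bases before to 50 after the start site, from RefSeq on GRCh38.p14. Capitals mark the core motifs ACGTG and GCGTG and their reverse complements CACGT and CACGC; overlapping matches merge into 1 run.
BNIP3 (chr10:131981874-131982173, minus strand): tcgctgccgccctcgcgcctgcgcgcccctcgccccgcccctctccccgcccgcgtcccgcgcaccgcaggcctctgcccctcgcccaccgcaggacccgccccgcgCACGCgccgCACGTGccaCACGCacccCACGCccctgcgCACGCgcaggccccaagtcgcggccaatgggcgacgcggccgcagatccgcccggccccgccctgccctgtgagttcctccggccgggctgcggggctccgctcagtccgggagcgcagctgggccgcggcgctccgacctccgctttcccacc
FAM162A (chr3:122383932-122384231, plus strand): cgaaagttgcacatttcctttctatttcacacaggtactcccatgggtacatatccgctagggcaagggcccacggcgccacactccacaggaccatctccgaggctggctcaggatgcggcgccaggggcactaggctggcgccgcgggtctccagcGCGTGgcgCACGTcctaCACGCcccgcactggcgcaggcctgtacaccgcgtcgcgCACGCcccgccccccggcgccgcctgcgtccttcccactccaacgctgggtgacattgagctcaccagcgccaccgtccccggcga
P4HA1 (chr10:73096817-73097116, minus strand): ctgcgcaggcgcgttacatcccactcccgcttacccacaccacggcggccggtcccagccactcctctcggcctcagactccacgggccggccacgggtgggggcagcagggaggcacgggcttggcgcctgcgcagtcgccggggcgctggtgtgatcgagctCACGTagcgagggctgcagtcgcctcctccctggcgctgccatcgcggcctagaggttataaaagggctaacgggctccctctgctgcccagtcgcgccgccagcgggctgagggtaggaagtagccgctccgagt
The BNIP3 promoter held 6 matches with 1 overlapping pair, the FAM162A promoter 4 and the P4HA1 promoter 1. A match is a description of the letters and not a bound site: 48.4% of 35116 RefSeq promoters of this length hold at least 1, and so did 17 of the 21 hypoxia list promoters found in the table.

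BNIP3 (ENSG00000176171, chromosome 10, 131966455 to 131982013, minus strand), a mitochondrial protein of mitophagy and cell death, stood at 390, 415.8, 418.7 and 405.7 CPM in the libraries given both treatments, against 149, 168.7, 123.2 and 130.1 CPM in the control libraries. The treated libraries lay close together and above all control libraries (log2 fold change 1.51 ± 0.1 (SE), adjusted p = 1.43e-05). Its relative BNIP3L averaged 581.3 ± 18.2 CPM with both treatments and 336.6 ± 30.8 CPM in control (log2 fold change 0.79, adjusted p = 0.000189; SD, n = 4 each here and below). FAM162A, another mitochondrial protein of the hypoxic cell death response, had 59.3, 51.9, 51.2 and 51.9 CPM in the libraries given both treatments, against 22.2, 25.9, 20.7 and 20.1 CPM in the control libraries (log2 fold change 1.27 ± 0.1 (SE), adjusted p = 9.09e-05). P4HA1, the catalytic subunit of collagen prolyl 4-hydroxylase, averaged 206.2 ± 7.19 CPM with both treatments and 97.71 ± 14 CPM in control (log2 fold change 1.08, adjusted p = 0.00014). For these 4 genes, named for their small p, the groups did not overlap. Over the whole hypoxia list the treated libraries lay above all controls in 18 of 23 tested members, against 17.5% of all genes tested. VEGFA, the angiogenic growth factor, did not pass (log2 fold change 0.04, adjusted p = 0.86), and STC2, a secreted glycoprotein, was the member that fell (log2 fold change -0.56, adjusted p = 0.0429); both were picked after their values were seen. CA9 was too low to be tested.

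Glycolysis genes were mostly higher. Of 20 members 15 were higher and 1 lower, with a median log2 fold change of 0.51, and without control replicate 2 the counts were the same. PFKL (ENSG00000141959, chromosome 21, 44300051 to 44327376, plus strand), the liver-type phosphofructokinase that commits sugar to glycolysis, had 231.7, 273.2, 210.8 and 274.5 CPM in the libraries given both treatments, against 59.7, 89.2, 32.1 and 51.7 CPM in the control libraries. All treated libraries lay above all control libraries, and control replicate 3 was the lowest (log2 fold change 2.09 ± 0.24 (SE), adjusted p = 0.000356; after GC content correction with the block: log2 fold change 1.43, adjusted p = 4.71e-05). PFKFB4, which makes the activator fructose 2,6-bisphosphate, had 64.3, 63.4, 70.4 and 68.2 CPM in the libraries given both treatments, against 19.4, 23.9, 20 and 23.8 CPM in the control libraries. Its groups were widely separated (log2 fold change 1.61 ± 0.1 (SE), adjusted p = 1.13e-05). PFKFB2, another enzyme of that family, was the member that fell, at 50.49 ± 4.25 CPM with both treatments and 94.17 ± 9.91 CPM in control (log2 fold change -0.9, adjusted p = 0.000322).

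ENO2, an enolase, had 134.7, 145.8, 163.9 and 152 CPM in the libraries given both treatments, against 52.7, 64.3, 46.9 and 53.4 CPM in the control libraries (log2 fold change 1.46 ± 0.1 (SE), adjusted p = 3.19e-05); it overlaps LRRC23 on the same strand. PGK1, phosphoglycerate kinase, averaged 1070 ± 35.7 CPM with both treatments and 563.4 ± 63.9 CPM in control (log2 fold change 0.93, adjusted p = 0.000144); it overlaps ATP7A on the same strand. How such overlaps were counted is not given in the sources used here. LDHA, the lactate dehydrogenase subunit that favours lactate formation, had 1952.8, 1816.6, 1835.5 and 1690.6 CPM in the libraries given both treatments, against 1368.3, 1458.8, 1260.8 and 1156.7 CPM in the control libraries (log2 fold change 0.48 ± 0.08 (SE), adjusted p = 0.00193). LDHB, the subunit that favours pyruvate formation, did not pass, at 71.83 ± 2.8 CPM with both treatments and 76.6 ± 12 CPM in control (log2 fold change -0.09, adjusted p = 0.527).

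**Figure D3:**
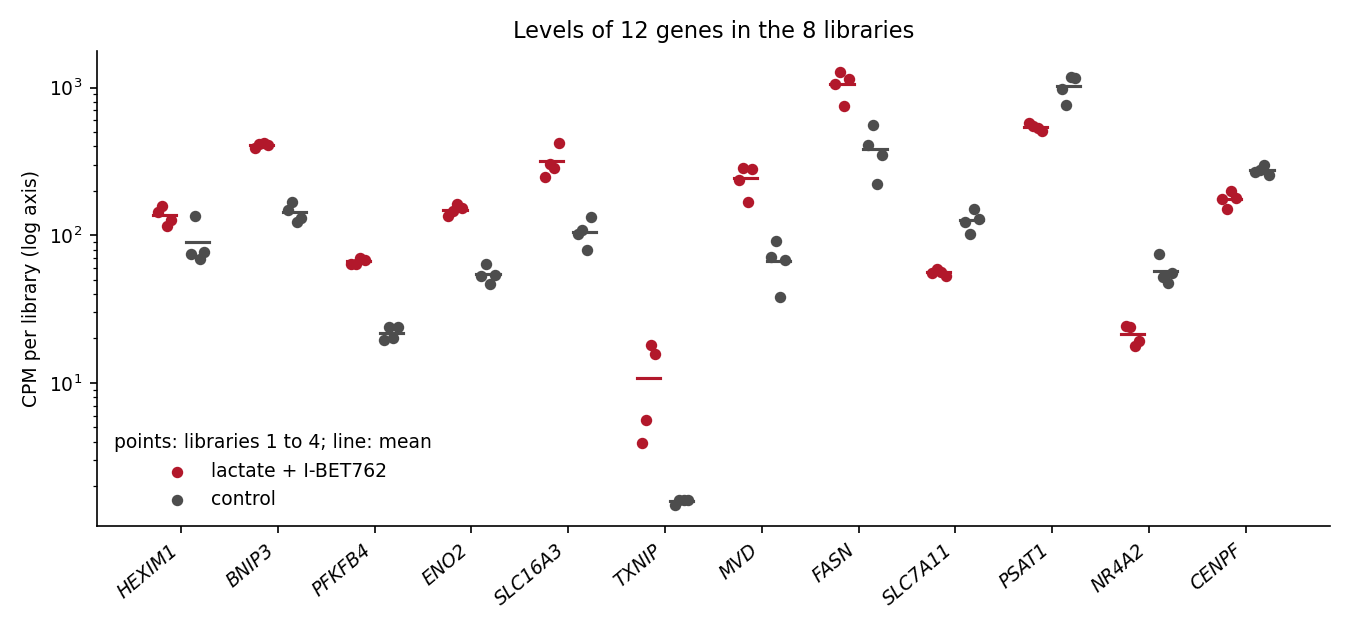
CPM per library on a log axis (vertical) for 12 genes (horizontal), lactate plus I-BET762 left of control within each gene; points are libraries 1 to 4 and lines are means. For HEXIM1 control replicate 2, at 135.4 CPM, lies among the treated libraries, whereas for the other 11 genes the groups do not overlap.

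The list for lactate and pyruvate transport and entry held changes in both directions, 7 of 17 tested members higher and 3 lower, with a median of 0.03. SLC16A3 (ENSG00000141526, chromosome 17, 82228397 to 82261129, plus strand), the exporter MCT4 of glycolytic cells, had 249.3, 305.7, 287 and 422.2 CPM in the libraries given both treatments, against 101.3, 108.5, 79.8 and 133.8 CPM in the control libraries. The treated libraries lay above the control libraries without overlap (log2 fold change 1.58 ± 0.17 (SE), adjusted p = 0.000356; with GC content correction and the block: log2 fold change 0.95, adjusted p = 1.15e-05). BSG, the chaperone that brings these transporters to the membrane, averaged 714.3 ± 120 CPM with both treatments and 409.5 ± 78.4 CPM in control (log2 fold change 0.8, adjusted p = 0.00274). After the correction with the block its log2 fold change was 0.27 (adjusted p = 0.00464). PDK2, a kinase that switches off pyruvate dehydrogenase, rose (log2 fold change 0.6, adjusted p = 0.011), and DLAT, a subunit of that complex, fell (log2 fold change -0.3, adjusted p = 0.0121). After GC content correction with the block PDK2 did not pass (log2 fold change 0.18, adjusted p = 0.144) and the list held 5 rises and 1 fall. Without control replicate 3, or without treated replicate 4, 6 members changed in place of 10, while 3666 and 3188 of all genes changed in place of 4709. PDK4, a further kinase of the complex, did not pass (log2 fold change -0.07, adjusted p = 0.822). SLC16A1, the transporter MCT1, had at most 1 count in a library and was not tested, so nothing can be said of it.

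Genes of cholesterol synthesis and uptake were higher or did not pass: 15 of 26 members were higher and none lower, with a median of 0.31, and 14 were higher and none lower without control replicate 2. These genes are targets of the transcription factor SREBF2, which is activated when membrane sterol is low. MVD (ENSG00000167508, chromosome 16, 88651935 to 88663161, minus strand), mevalonate diphosphate decarboxylase, had 237.3, 283.9, 167.8 and 282.8 CPM in the libraries given both treatments, against 71.5, 91.2, 38 and 68.4 CPM in the control libraries. Control replicate 3 and treated replicate 3 were the lowest of their groups, and the groups did not overlap (log2 fold change 1.85 ± 0.23 (SE), adjusted p = 0.000552; after the correction with the block: log2 fold change 1.18, adjusted p = 8.83e-06). TM7SF2, a sterol reductase, averaged 206.6 ± 25.3 CPM with both treatments and 62.85 ± 14.5 CPM in control (log2 fold change 1.72, adjusted p = 0.00014; after the correction with the block: 0.99); it overlaps VPS51 on the same strand. LSS, lanosterol synthase, averaged 35.25 ± 2.33 CPM with both treatments and 21.69 ± 1.86 CPM in control (log2 fold change 0.7, adjusted p = 0.000772). SREBF2 itself averaged 444.8 ± 8.69 CPM with both treatments and 325.5 ± 17.6 CPM in control (log2 fold change 0.45, adjusted p = 0.000838). In a fit of all 16 libraries (3045 of 14690 genes changed, 20.7%), which shares 1 estimate of spread among 4 groups, 7 members were higher and none lower, and LSS and SREBF2 did not pass (adjusted p = 0.171 and 0.107).

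Fatty acid synthesis and activation showed 6 of 21 members higher and 1 lower, with a median of 0.12. The 33.3% that changed are near the 33.5% of all genes, so the count does not set this list apart. FASN (ENSG00000169710, chromosome 17, 82078333 to 82098332, minus strand), fatty acid synthase, had 1064.8, 1268.6, 745.5 and 1143.7 CPM in the libraries given both treatments, against 407.2, 560.9, 223.1 and 348.8 CPM in the control libraries. Its levels spread widely within both groups without overlapping (log2 fold change 1.46 ± 0.24 (SE), adjusted p = 0.00147; after the correction with the block: log2 fold change 0.66, adjusted p = 0.000491). ACSS2, which makes acetyl-CoA from acetate, averaged 326 ± 12.9 CPM with both treatments and 190.6 ± 17.4 CPM in control (log2 fold change 0.77, adjusted p = 0.000252). SLC25A1, the mitochondrial citrate carrier, averaged 243.6 ± 15.1 CPM with both treatments and 121.8 ± 22.9 CPM in control (log2 fold change 1, adjusted p = 0.000456), and FADS2, a fatty acid desaturase, 1079 ± 44.5 CPM with both treatments and 809.7 ± 76.5 CPM in control (log2 fold change 0.41, adjusted p = 0.00275). The SLC25A1 and FADS2 calls were lost after GC content correction with the block (adjusted p = 0.208 and 0.391, with a log2 fold change of 0.15 for SLC25A1), where 4 members of the list were higher and 2 lower. ACLY, which makes cytosolic acetyl-CoA from citrate, had 1727.1, 1584.3, 1658.2 and 1518.2 CPM in the libraries given both treatments, against 1271, 1571.7, 1132.3 and 1137.4 CPM in the control libraries. It passed although the groups overlapped (log2 fold change 0.34 ± 0.1 (SE), adjusted p = 0.0242). Its call was lost without control replicate 1, 3 or 4 or treated replicate 1 or 2 (adjusted p between 0.0537 and 0.0731), and without control replicate 2 it was 0.44 (adjusted p = 0.00145).

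Lipid storage and fatty acid use held mixed changes. Of 21 lipid droplet genes 6 were higher and 3 lower, with a median of 0.04, and after the correction with the block 3 were higher and 4 lower. HILPDA, a droplet protein that inhibits triglyceride breakdown, averaged 26.05 ± 3.51 CPM with both treatments and 12.03 ± 0.764 CPM in control (log2 fold change 1.11, adjusted p = 0.000356). PNPLA2, the lipase that HILPDA inhibits, averaged 96.62 ± 23.6 CPM with both treatments and 45.9 ± 10.7 CPM in control (log2 fold change 1.08, adjusted p = 0.00212). After GC content correction with the block its log2 fold change was 0.3 (adjusted p = 0.0069). After the correction without the block PNPLA2 did not pass (adjusted p = 0.0791). GPAT3 and LPIN1, enzymes of glycerolipid synthesis, fell (log2 fold change -0.74, adjusted p = 0.000859 for GPAT3, and log2 fold change -0.53, adjusted p = 0.00279 for LPIN1). PLIN2, a coat protein of lipid droplets, did not pass, at 61.66 ± 12.1 CPM with both treatments and 60.09 ± 11.8 CPM in control (log2 fold change 0.04, adjusted p = 0.884), and its sign turned to -0.11 without control replicate 2. The fatty acid oxidation list held 7 rises and 2 falls among 24 members, with a median of 0.17 (10 rises and 2 falls without control replicate 2).

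Among those rises ACADS, the short-chain acyl-CoA dehydrogenase, averaged 14.96 ± 3.31 CPM with both treatments and 4.337 ± 1.3 CPM in control (log2 fold change 1.79, adjusted p = 0.000578; after the correction with the block: 1.02), and ACADVL, the very-long-chain enzyme, 692.7 ± 34.3 CPM with both treatments and 409.8 ± 68.8 CPM in control (log2 fold change 0.76, adjusted p = 0.000768). CPT1C and ACOX3 also rose (log2 fold change 1.33, adjusted p = 0.00169 for CPT1C, and log2 fold change 0.57, adjusted p = 0.0033 for ACOX3). CPT1A, the gate of mitochondrial fatty acid entry, did not pass (log2 fold change -0.15, adjusted p = 0.296). Of 11 PPAR receptors and targets 4 were higher and 1 lower, with a median of 0.11, and after the correction with the block 3 were higher and 3 lower, with a median of -0.2. UCP2, a mitochondrial carrier, had 68.5, 62.4, 77.4 and 76.9 CPM in the libraries given both treatments, against 27.1, 36.6, 16.3 and 17.6 CPM in the control libraries (log2 fold change 1.55 ± 0.21 (SE), adjusted p = 0.000732). ANGPTL4, a secreted inhibitor of lipoprotein lipase, averaged 23.32 ± 4.24 CPM with both treatments and 10.05 ± 2.18 CPM in control (log2 fold change 1.22, adjusted p = 0.000859; after the correction with the block: log2 fold change 0.55, adjusted p = 0.00194). RXRA, the partner receptor of PPARs, rose (log2 fold change 0.63, adjusted p = 0.00259), a call that the correction with the block ended (log2 fold change 0.16, adjusted p = 0.168).

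Amino acid transporters were the list with the largest share of falls: 11 of 14 tested members were lower and none higher, with a median of -0.63. Without control replicate 2, 12 were lower. SLC7A11 (ENSG00000151012, chromosome 4, 138164097 to 138242349, minus strand), the cystine and glutamate antiporter, had 55.9, 59.3, 56.8 and 53 CPM in the libraries given both treatments, against 122.9, 101.2, 150.7 and 129.1 CPM in the control libraries. The treated libraries lay close together and below all control libraries (log2 fold change -1.16 ± 0.11 (SE), adjusted p = 0.00018). SLC38A1, a glutamine transporter, had 491.7, 474.2, 449.4 and 397.7 CPM in the libraries given both treatments, against 925.9, 683.1, 1081.3 and 880.6 CPM in the control libraries (log2 fold change -0.98 ± 0.12 (SE), adjusted p = 0.000552). SLC1A4, a carrier of neutral amino acids, averaged 23.9 ± 1.01 CPM with both treatments and 50.37 ± 10.9 CPM in control (log2 fold change -1.08, adjusted p = 0.000609), and SLC7A1, a carrier of cationic amino acids, 184.1 ± 12.4 CPM with both treatments and 249.1 ± 13.1 CPM in control (log2 fold change -0.44, adjusted p = 0.00163).

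Aminoacyl-tRNA synthetases, which load amino acids onto tRNA, moved likewise, with 13 of 19 lower, 1 higher and a median of -0.41. MARS1, which overlaps DDIT3 on the other strand, had 326.9, 298.6, 325.7 and 303.4 CPM in the libraries given both treatments, against 535.8, 427.1, 603.9 and 614.9 CPM in the control libraries (log2 fold change -0.8 ± 0.11 (SE), adjusted p = 0.00063). TARS1, IARS1 and EPRS1 fell (log2 fold change -0.67, adjusted p = 0.000552 for TARS1, log2 fold change -0.62, adjusted p = 0.000886 for IARS1, and log2 fold change -0.69, adjusted p = 0.000893 for EPRS1). In the list for amino acid and unfolded protein stress, 5 of 21 members were lower and 2 higher, and without control replicate 2 the numbers were 9 and 2. After GC content correction with the block 8 were lower and 5 higher. PSAT1, an enzyme of serine synthesis, had 579, 550.8, 531 and 507.4 CPM in the libraries given both treatments, against 979.7, 756.6, 1181.9 and 1155.3 CPM in the control libraries (log2 fold change -0.91 ± 0.12 (SE), adjusted p = 0.000684). PHGDH and PSPH, the other enzymes of that pathway, fell (log2 fold change -0.5, adjusted p = 0.00656 for PHGDH, and log2 fold change -0.5, adjusted p = 0.00656 for PSPH). MTHFD2, a mitochondrial folate enzyme, averaged 338 ± 14.7 CPM with both treatments and 565.6 ± 69.2 CPM in control (log2 fold change -0.74, adjusted p = 0.000466). ATF4, the transcription factor known to drive many of these genes, fell to 472.9 CPM with both treatments, against 591 CPM in control (log2 fold change -0.32, adjusted p = 0.0102), and HSPA5, the endoplasmic reticulum chaperone, rose (log2 fold change 0.5, adjusted p = 0.0116). ATF4 and HSPA5 were picked after their values were seen.

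**Figure D4:**
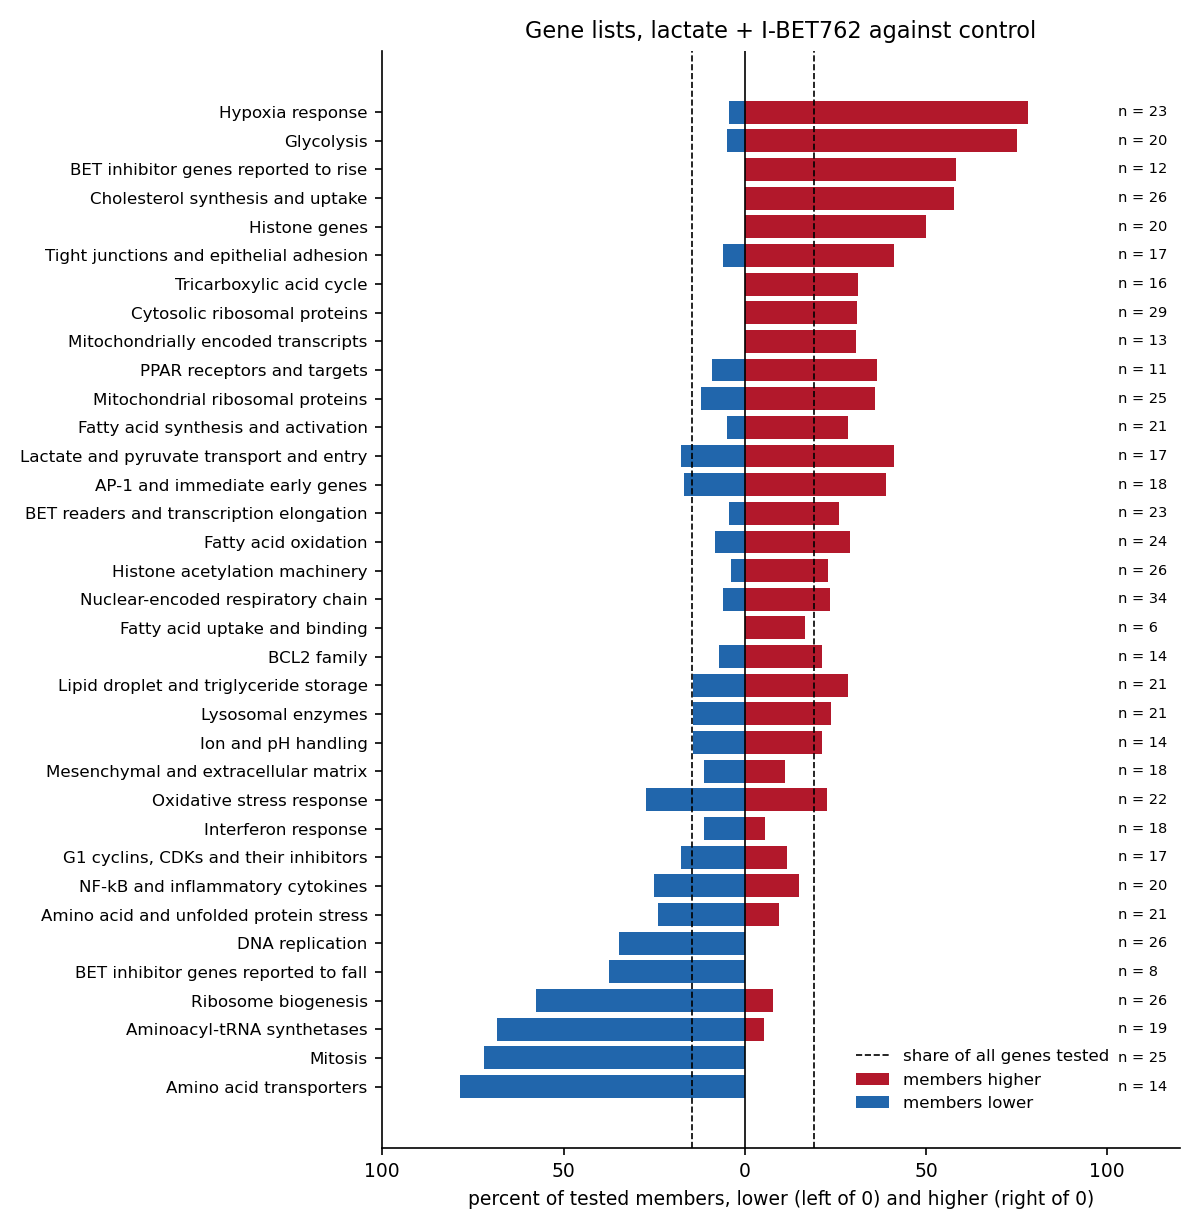
Percent of the tested members of each gene list that rose (right) or fell (left) with lactate plus I-BET762 against control; dashed lines mark the shares of all genes tested, 19% and 14.6%, and n is the number of members tested. The hypoxia and glycolysis lists lie furthest to the right, and the amino acid transporter and mitosis lists furthest to the left.

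The oxidative stress list held 5 rises and 6 falls among 22 members. GPX4, the lipid peroxide reductase, averaged 334.2 ± 30.2 CPM with both treatments and 173.6 ± 36.4 CPM in control (log2 fold change 0.95, adjusted p = 0.000784; after the correction with the block: log2 fold change 0.36, adjusted p = 0.00665). GSR, glutathione reductase, had 322.6, 335.2, 304.3 and 298.6 CPM in the libraries given both treatments, against 413, 416.9, 422.4 and 425.5 CPM in the control libraries (log2 fold change -0.41 ± 0.06 (SE), adjusted p = 0.00116). NFE2L2, the transcription factor NRF2, fell (log2 fold change -0.32, adjusted p = 0.00433). After the correction with the block 2 members were higher and 9 lower.

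Most mitosis genes were lower. Of 25 mitosis genes 18 fell and none rose, with a median of -0.41, and 18 fell without control replicate 2. NDC80, a kinetochore protein, had 78.7, 69.6, 79.5 and 76.4 CPM in the libraries given both treatments, against 125.3, 115, 120.3 and 129.2 CPM in the control libraries (log2 fold change -0.69 ± 0.07 (SE), adjusted p = 0.000322). CENPF, a centromere protein, had 175.4, 151.7, 200.5 and 179.9 CPM in the libraries given both treatments, against 268.2, 277.4, 297.2 and 257.7 CPM in the control libraries (log2 fold change -0.64 ± 0.09 (SE), adjusted p = 0.000732). CENPE, a kinetochore motor, averaged 74 ± 7.76 CPM with both treatments and 120 ± 6.46 CPM in control (log2 fold change -0.7, adjusted p = 0.000512), and AURKA, the centrosomal kinase, 136.3 ± 8.43 CPM with both treatments and 195.4 ± 11.9 CPM in control (log2 fold change -0.52, adjusted p = 0.000802). For these 4 genes, named for their small p, every treated library lay below every control library. Over the whole mitosis list this held for 18 of 25 genes, against 14% of all genes tested. DNA replication genes fell less widely, 9 of 26 with none higher and a median of -0.21. MCM3 and MCM6, subunits of the replicative helicase, averaged 251.1 ± 17.9 CPM with both treatments and 364.5 ± 27.5 CPM in control (log2 fold change -0.54, adjusted p = 0.000901) and 151.8 ± 13.1 CPM with both treatments and 199.7 ± 16.5 CPM in control (log2 fold change -0.4, adjusted p = 0.00509). RRM1, a ribonucleotide reductase subunit, and RFC4, a clamp loader subunit, also fell (log2 fold change -0.4, adjusted p = 0.00419 for RRM1, and log2 fold change -0.49, adjusted p = 0.00558 for RFC4). Without control replicate 1, treated replicate 2 or treated replicate 4, 5 replication genes changed, and without control replicate 2 there were 7 falls and 1 rise. Of 17 G1 cyclins, CDKs and inhibitors 2 were higher and 3 lower, and after the correction with the block 2 and 6. After the correction without the block 1 was higher and 0 lower, and with the block alone 5 and 4. Without control replicate 1 or treated replicate 1, 2 or 4 between 2 and 3 of them changed.

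Ribosome biogenesis factors were lower, 15 of 26 with 2 higher and a median of -0.34. UTP20, of the small subunit processome, had 80.4, 61.4, 68 and 58.6 CPM in the libraries given both treatments, against 124.5, 143.6, 118.4 and 94.6 CPM in the control libraries (log2 fold change -0.84 ± 0.13 (SE), adjusted p = 0.00122). DDX21, a nucleolar helicase, averaged 293.3 ± 34.3 CPM with both treatments and 421.3 ± 17.8 CPM in control (log2 fold change -0.52, adjusted p = 0.0015), DKC1, the pseudouridine synthase, 132.6 ± 12.1 CPM with both treatments and 188 ± 15.1 CPM in control (log2 fold change -0.5, adjusted p = 0.00173), and WDR12 45.59 ± 1.69 CPM with both treatments and 61.61 ± 3.48 CPM in control (log2 fold change -0.43, adjusted p = 0.002). Without treated replicate 4, 10 were lower and 1 higher. Of 29 cytosolic ribosomal proteins 9 were higher and none lower, with a median of 0.13. The 31% that changed are near the 33.5% of all genes (19% higher and 14.6% lower), so the count alone does not set this list apart. Without control replicate 4 the number higher was 14. RPLP1 had 1032.8, 1190.9, 715.1 and 1055.4 CPM in the libraries given both treatments, against 471.1, 560.4, 336.2 and 655.5 CPM in the control libraries (log2 fold change 0.98 ± 0.19 (SE), adjusted p = 0.00333). RPL18, RPL13 and RPS15 rose (log2 fold change 0.68, adjusted p = 0.00165 for RPL18, log2 fold change 0.58, adjusted p = 0.00407 for RPL13, and log2 fold change 0.53, adjusted p = 0.00494 for RPS15), and RPS15 did not pass after the correction with the block (adjusted p = 0.198). These genes have near-identical copies in the genome, so their counts are uncertain.

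Nuclear genes of the respiratory chain rose in 8 of 34 cases and fell in 2, with a median of 0.11; the 29.4% that changed are fewer than the 33.5% of all genes, so the count does not set this list apart. NDUFS7, NDUFV1 and NDUFS8, subunits of complex I, averaged 35.21 ± 10.8 CPM with both treatments and 12.89 ± 3.69 CPM in control for NDUFS7 (log2 fold change 1.45, adjusted p = 0.00197), 149.3 ± 12.9 CPM with both treatments and 88.88 ± 18.7 CPM in control for NDUFV1 (log2 fold change 0.75, adjusted p = 0.00259) and 86.72 ± 17.4 CPM with both treatments and 45.6 ± 11.5 CPM in control for NDUFS8 (log2 fold change 0.93, adjusted p = 0.00419). ATP5F1D, a subunit of ATP synthase, averaged 43.96 ± 9.3 CPM with both treatments and 16.7 ± 6.58 CPM in control (log2 fold change 1.4, adjusted p = 0.00305; after the correction with the block: 0.73). Between 5 and 6 members changed without control replicate 1 or treated replicate 2, 3 or 4, and 12 rose and 4 fell after the correction with the block. Mitochondrially encoded transcripts rose in 4 of 13 cases and fell in none. Of all genes tested 19% rose and 33.5% changed in either direction, against these 30.8%. MT-CO3, a subunit of cytochrome c oxidase, had 3904.9, 3961.3, 3237.8 and 3627.1 CPM in the libraries given both treatments, against 2634.9, 2793.9, 2634.7 and 2428.6 CPM in the control libraries (log2 fold change 0.49 ± 0.08 (SE), adjusted p = 0.0015). MT-CO2 and MT-CO1, of the same complex, rose (log2 fold change 0.59, adjusted p = 0.00337 for MT-CO2, and log2 fold change 0.36, adjusted p = 0.00791 for MT-CO1), as did MT-ND3 of complex I (log2 fold change 0.28, adjusted p = 0.0232), whose call was lost without control replicate 1 or 2 or treated replicate 1, 2 or 4 (adjusted p between 0.051 and 0.0794). The number of rises was 7 without treated replicate 3. After the correction with the block it was 8 with 0 falls, where 15.3% of all genes tested were higher. The mitochondrial share of counts given above moves with these 4 genes, and its part was not tested.

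Of 12 genes reported to rise under BET inhibitors 7 were higher and none lower, while 19% of all genes tested were higher. The median was 0.54, and without control replicate 2 the number higher was 8. Of the 7, 5 are histone genes. H1-2, a linker histone, had 285.7, 305.5, 310.3 and 355.1 CPM in the libraries given both treatments, against 164.9, 193.7, 133.9 and 198.9 CPM in the control libraries (log2 fold change 0.86 ± 0.12 (SE), adjusted p = 0.000732). H2BC4 and H2BC5, which encode histone H2B, averaged 17.02 ± 1.84 CPM with both treatments and 9.518 ± 2.01 CPM in control (log2 fold change 0.84, adjusted p = 0.00269) and 32.56 ± 3.12 CPM with both treatments and 19.73 ± 5.57 CPM in control (log2 fold change 0.73, adjusted p = 0.00751). ZCCHC24, a zinc finger protein, averaged 43.71 ± 3.63 CPM with both treatments and 24.89 ± 4.34 CPM in control (log2 fold change 0.81, adjusted p = 0.0012). In the fit of all 16 libraries, H1-2 and ZCCHC24 passed with lactate alone (log2 fold change 0.95 and 0.45, adjusted p = 0.0134 and 0.0164). With I-BET762 alone they did not (0.48 and 0.41, adjusted p = 0.512 and 0.116). For H1-2, lactate replicate 1 stood at 600.4 CPM, against 214.8 to 305.9 CPM in the other lactate libraries. The control libraries held 135.3 to 198.3 CPM in that scaling. H2BC4 and H2BC5 passed with neither agent alone (0.77 and 0.71 with I-BET762, -0.08 and -0.3 with lactate). For H2BC4, I-BET762 replicate 2 stood at 10 CPM, against 15.5 to 20.5 CPM in the other I-BET762 libraries. Control replicate 2 stood at 12.2 CPM, against 7.9 to 9.9 CPM in the other controls. For H2BC5 both libraries numbered 2 went against their labels, as given above. The single treatments without these libraries were not tested for either gene. SERPINI1, a serine protease inhibitor, did not pass with all libraries (log2 fold change 0.26, adjusted p = 0.151) and passed without control replicate 2 (0.36, adjusted p = 0.0281). On the histone list as a whole 10 of 20 were higher and none lower, with a median of 0.34. It added H1-10, a linker histone (log2 fold change 1.42, adjusted p = 0.000931; after the correction with the block: log2 fold change 0.29, adjusted p = 0.00828), and H2AJ, an H2A variant (log2 fold change 1.1, adjusted p = 0.002). Histone genes have near-identical copies and mostly lack poly(A) tails, so these counts are uncertain.

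Of 8 tested genes known to decline under BET inhibitors 3 were lower and none higher, while 14.6% of all genes tested were lower. FOSL1, an AP-1 subunit, had 74.7, 63.8, 87 and 85.4 CPM in the libraries given both treatments, against 101.3, 107.3, 111.2 and 130 CPM in the control libraries. Every treated library lay below every control library (log2 fold change -0.53 ± 0.11 (SE), adjusted p = 0.00436). HMGA2, a chromatin protein of growth, and CDK6, a G1 kinase, fell (log2 fold change -0.77, adjusted p = 0.00381 for HMGA2, and log2 fold change -0.71, adjusted p = 0.00506 for CDK6). In the fit of all 16 libraries, FOSL1, HMGA2 and CDK6 did not pass with either agent alone. Their log2 fold changes in that order were -0.09, -0.14 and -0.37 with I-BET762 alone, and -0.48, -0.39 and -0.55 with lactate alone. For FOSL1, lactate replicate 1 stood at 41 CPM, against 81 to 108.3 CPM in the other lactate libraries. MYC, the growth regulator best known for its response to BET inhibitors, had 76.2, 82.5, 84.2 and 93.2 CPM in the libraries given both treatments, against 78.4, 73.5, 89.1 and 93.5 CPM in the control libraries. The groups overlapped (log2 fold change 0.01 ± 0.09 (SE), adjusted p = 0.963). IL6, a cytokine, did not pass (log2 fold change 0.47, adjusted p = 0.248), and with the replicate number as a block it did (0.44, adjusted p = 0.0424).

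Of 23 tested readers and elongation factors 6 were higher and 1 lower. BRD3, a BET protein, did not pass (log2 fold change 0.16, adjusted p = 0.25). BRD2, another, had at most 3 counts in a library and was not tested, so nothing can be said of it. CDK9 had 116.6, 126.3, 113.5 and 132.4 CPM in the libraries given both treatments, against 74.9, 92.3, 70.2 and 74.1 CPM in the control libraries (log2 fold change 0.65 ± 0.1 (SE), adjusted p = 0.000922). NELFB and NELFA, subunits of the pausing factor NELF, and HEXIM2, the relative of HEXIM1, were higher (log2 fold change 0.8, adjusted p = 0.00147 for NELFB, log2 fold change 0.7, adjusted p = 0.0106 for NELFA, and log2 fold change 0.92, adjusted p = 0.00988 for HEXIM2). After GC content correction with the block these 3 calls were lost (adjusted p = 0.59, 0.0668 and 0.052, with a log2 fold change of 0.05 for NELFB), and the list held 3 rises and 5 falls. Writers and erasers of histone acetylation were higher in 6 of 26 cases and lower in 1, and after the correction with the block in 3 and 6. HDAC6, a largely cytoplasmic deacetylase, averaged 58.6 ± 2.52 CPM with both treatments and 37.09 ± 2.77 CPM in control (log2 fold change 0.66, adjusted p = 0.000552). HDAC11, SIRT6 and HDAC5 rose (log2 fold change 0.7, adjusted p = 0.0029 for HDAC11, log2 fold change 0.97, adjusted p = 0.00408 for SIRT6, and log2 fold change 0.57, adjusted p = 0.00893 for HDAC5). They did not pass after the correction with the block (adjusted p = 0.188, 0.243 and 0.548, with a log2 fold change of 0.16 for SIRT6).

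Of 18 immediate early genes 7 were higher and 3 lower. NR4A2 (ENSG00000153234, chromosome 2, 156324432 to 156342348, minus strand), an orphan nuclear receptor, had 24.3, 23.9, 17.8 and 19.2 CPM in the libraries given both treatments, against 74.4, 51.8, 47.3 and 55.2 CPM in the control libraries, and its groups were far apart (log2 fold change -1.42 ± 0.15 (SE), adjusted p = 0.000354). NR4A3 of the same family averaged 21.8 ± 3.87 CPM with both treatments and 47.03 ± 4.39 CPM in control (log2 fold change -1.11, adjusted p = 0.000428). Of the AP-1 subunits, FOSL1 fell as given above, whereas JUN had 85.8, 100.9, 82.1 and 100.2 CPM in the libraries given both treatments, against 48.3, 53.6, 37.6 and 45.5 CPM in the control libraries (log2 fold change 1 ± 0.11 (SE), adjusted p = 0.000379) and JUNB averaged 41.25 ± 13.2 CPM with both treatments and 11.56 ± 2.66 CPM in control (log2 fold change 1.84, adjusted p = 0.000578; after the correction with the block: 1.01). Of 20 NF-kB and cytokine genes 3 were higher and 5 lower, and after the correction with the block 4 were higher and 9 lower. ICAM1, an adhesion molecule, averaged 1055 ± 85 CPM with both treatments and 681.5 ± 62.3 CPM in control (log2 fold change 0.63, adjusted p = 0.000693), BIRC3, an inhibitor of apoptosis, 136.6 ± 7.74 CPM with both treatments and 226.9 ± 32.7 CPM in control (log2 fold change -0.73, adjusted p = 0.000732), and TNFAIP3, the feedback inhibitor A20, 39.66 ± 7.04 CPM with both treatments and 73.82 ± 22 CPM in control (log2 fold change -0.9, adjusted p = 0.00702). RELA, the p65 subunit, rose (log2 fold change 0.33, adjusted p = 0.0083) and did not pass after the correction with the block (adjusted p = 0.276). Without control replicate 1 or treated replicate 2 or 4, 5 members of the list changed in place of 8. The interferon list held 1 rise and 2 falls among 18 members: ISG15 rose (log2 fold change 1.3, adjusted p = 0.00661; after the correction with the block: 0.66), USP18 and OAS3 fell (log2 fold change -0.44, adjusted p = 0.0121 for USP18, and log2 fold change -0.57, adjusted p = 0.0141 for OAS3), and IFI35 did not pass (log2 fold change 0.37, adjusted p = 0.106) except with the block (adjusted p = 0.034). After GC content correction with the block 2 members were higher and 3 lower.

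Tight junction and epithelial genes were higher in 7 of 17 cases and lower in 1. CLDN4, a claudin, averaged 121.2 ± 26.3 CPM with both treatments and 60.76 ± 14.6 CPM in control (log2 fold change 0.99, adjusted p = 0.00259), and KRT8, a keratin whose gene overlaps KRT18 on the other strand, 1209 ± 157 CPM with both treatments and 819.3 ± 98.2 CPM in control (log2 fold change 0.56, adjusted p = 0.00277). ELF3, an epithelial transcription factor, rose (log2 fold change 0.57, adjusted p = 0.00471). The remaining lists gave smaller or mixed counts. Of 16 enzymes of the tricarboxylic acid cycle 5 were higher and none lower, and 2 or 3 were higher without control replicate 1 or 3 or treated replicate 1, 2 or 4. Of 25 mitochondrial ribosomal proteins 9 were higher and 3 lower, and after GC content correction with the block 3 were higher and 5 lower. Lysosomal enzymes counted 5 higher and 3 lower of 21, ion and pH handling 3 and 2 of 14 (0 and 1 after GC content correction with the block, and 2 or 3 changes without control replicate 3 or 4 or any 1 of the treated replicates), and mesenchymal and matrix genes 2 and 2 of 18 (4 and 3). In the BCL2 family 3 of 14 were higher and 1 lower, and without control replicate 2 the numbers were 4 and 5, and without treated replicate 2 or 4 there were 2 changes. After the correction with the block 2 members of that family were higher and 5 lower. After the correction without the block 0 were higher and 1 lower, and with the block alone 5 and 2. Of 6 fatty acid uptake genes 1 was higher.

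The largest rises, taken where the mean reached 5 CPM and the groups did not overlap, were mostly GC-rich genes of low level. BAIAP3, a vesicle release factor of the Munc13 family, had 8.7, 14.6, 6.2 and 12.3 CPM in the libraries given both treatments, against 1.5, 2.4, 0.52 and 1.2 CPM in the control libraries (log2 fold change 2.91 ± 0.37 (SE), adjusted p = 0.000552; after the correction with the block: 2.2); it overlaps TSR3 on the other strand. TXNIP, the thioredoxin-interacting protein that limits glucose uptake, had 3.9, 5.6, 18 and 15.8 CPM in the libraries given both treatments, against 1.5, 1.6, 1.6 and 1.6 CPM in the control libraries. The control libraries were nearly equal, while treated replicates 3 and 4 lay far above treated replicates 1 and 2 (log2 fold change 2.76 ± 0.46 (SE), adjusted p = 0.00165). At 43.9% GC it was the only gene of the 10 below 60%, and it also passed after the correction with the block (log2 fold change 2.72, adjusted p = 9.66e-05). CLDN3, a claudin, had 10.7, 22.1, 7.1 and 15.8 CPM in the libraries given both treatments, against 2.2, 2.4, 1 and 3.5 CPM in the control libraries (log2 fold change 2.62 ± 0.38 (SE), adjusted p = 0.000889; after the correction with the block: log2 fold change 1.4, adjusted p = 0.000185). SPAG4, a SUN-domain protein of the nuclear envelope, had 23.3, 28.3, 22.5 and 28 CPM in the libraries given both treatments, against 5.1, 5.6, 4.7 and 5.9 CPM in the control libraries (log2 fold change 2.26 ± 0.14 (SE), adjusted p = 1.13e-05; after the correction with the block: log2 fold change 1.73, adjusted p = 4.13e-06). CCDC85B, RHPN1, SCAND1, SSPOP, OPLAH and PFKL complete the 10, with log2 fold changes of 2.53 for CCDC85B, 2.37 for RHPN1, 2.36 for SCAND1, 2.18 for SSPOP, 2.17 for OPLAH and 2.09 for PFKL. After the correction with the block these were 1.45, 1.41, 1.67, 1.21, 1.21 and 1.43 in that order, and all 10 genes passed.

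The largest falls were smaller in size. After NR4A2 came SYNE1, the nuclear envelope protein nesprin-1, with 39.3, 40.5, 42.7 and 34.2 CPM in the libraries given both treatments, against 92.6, 86.6, 102.7 and 74.3 CPM in the control libraries (log2 fold change -1.18 ± 0.11 (SE), adjusted p = 0.000158). SCEL, a protein of the cornified envelope, had 64.8, 61.7, 68.9 and 65.4 CPM in the libraries given both treatments, against 106.7, 75.8, 213.9 and 180.4 CPM in the control libraries; the control libraries spread over a wide range and the treated libraries hardly at all (log2 fold change -1.15 ± 0.25 (SE), adjusted p = 0.00611). TFPI2, a protease inhibitor of the matrix, had 15.7, 18.5, 19.8 and 17.3 CPM in the libraries given both treatments, against 42.7, 23.7, 46.3 and 44.5 CPM in the control libraries, where control replicate 2 lay nearest to the treated libraries (log2 fold change -1.14 ± 0.19 (SE), adjusted p = 0.00142). IGF2BP3, an RNA-binding protein, averaged 6.409 ± 0.38 CPM with both treatments and 13.89 ± 3.57 CPM in control (log2 fold change -1.12, adjusted p = 0.00168). SLC7A11, ZFP69B, KCNJ14 (which overlaps GRWD1 on the same strand), NR4A3 and SLC1A4 complete the 10, with log2 fold changes of -1.16 for SLC7A11, -1.12 for ZFP69B, -1.12 for KCNJ14, -1.11 for NR4A3 and -1.08 for SLC1A4. CEMIP, a hyaluronan-binding protein chosen after its values were seen, fell further, at 26.1 CPM with both treatments and 114.9 CPM in control (log2 fold change -2.14, adjusted p = 0.00754), but its libraries overlapped between the groups.

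The single treatments were set beside the combination in a fit of all 16 libraries. All 3 comparisons with control share the 4 control libraries, so their likeness is not counted here and each value stands on its own. BNIP3 averaged 389.1 CPM with lactate alone (log2 fold change over control 1.44, adjusted p = 1.08e-05) and 138.5 CPM with I-BET762 alone (-0.05, adjusted p = 0.947). SLC7A11 averaged 67.5 CPM with lactate alone (-0.91, adjusted p = 0.00133) and 115.9 CPM with I-BET762 alone (-0.13, adjusted p = 0.872). PFKL averaged 176.1 CPM with lactate alone (1.6, adjusted p = 0.000717) and 96.4 CPM with I-BET762 alone (0.73, adjusted p = 0.172). For these 3 genes the comparison with lactate alone passed and that with I-BET762 alone did not; the difference between them was not tested. HEXIM1 averaged 77.2 CPM with lactate alone (-0.21, adjusted p = 0.421) and 116.3 CPM with I-BET762 alone (0.38, adjusted p = 0.486). FASN averaged 646.7 CPM with lactate alone (0.74, adjusted p = 0.158) and 729.6 CPM with I-BET762 alone (0.92, adjusted p = 0.33). NDC80, of the mitosis list, averaged 108.7 CPM with lactate alone (-0.18, adjusted p = 0.444) and 110.3 CPM with I-BET762 alone (-0.16, adjusted p = 0.848). None of these last 3 genes passed with either agent alone. Without control replicate 2 and I-BET762 replicate 2, HEXIM1 had a log2 fold change of 0.75 with I-BET762 alone (adjusted p = 0.0535) and 0.05 with lactate alone (adjusted p = 0.804), and the calls of all 6 genes were as before; this setting was added after the data were seen. Lactate replicate 1 stood away from the other lactate libraries for FASN, at 171.8 CPM against 493 to 1001 CPM, and for NDC80, at 167.4 CPM against 80.7 to 101.5 CPM. NDC80 does not stand for the whole mitosis list. CENPF passed with lactate alone (log2 fold change -0.49, adjusted p = 0.0074) and not with I-BET762 alone (-0.29, adjusted p = 0.275). CENPE and AURKA did not pass with either agent alone.

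**Figure D5:**
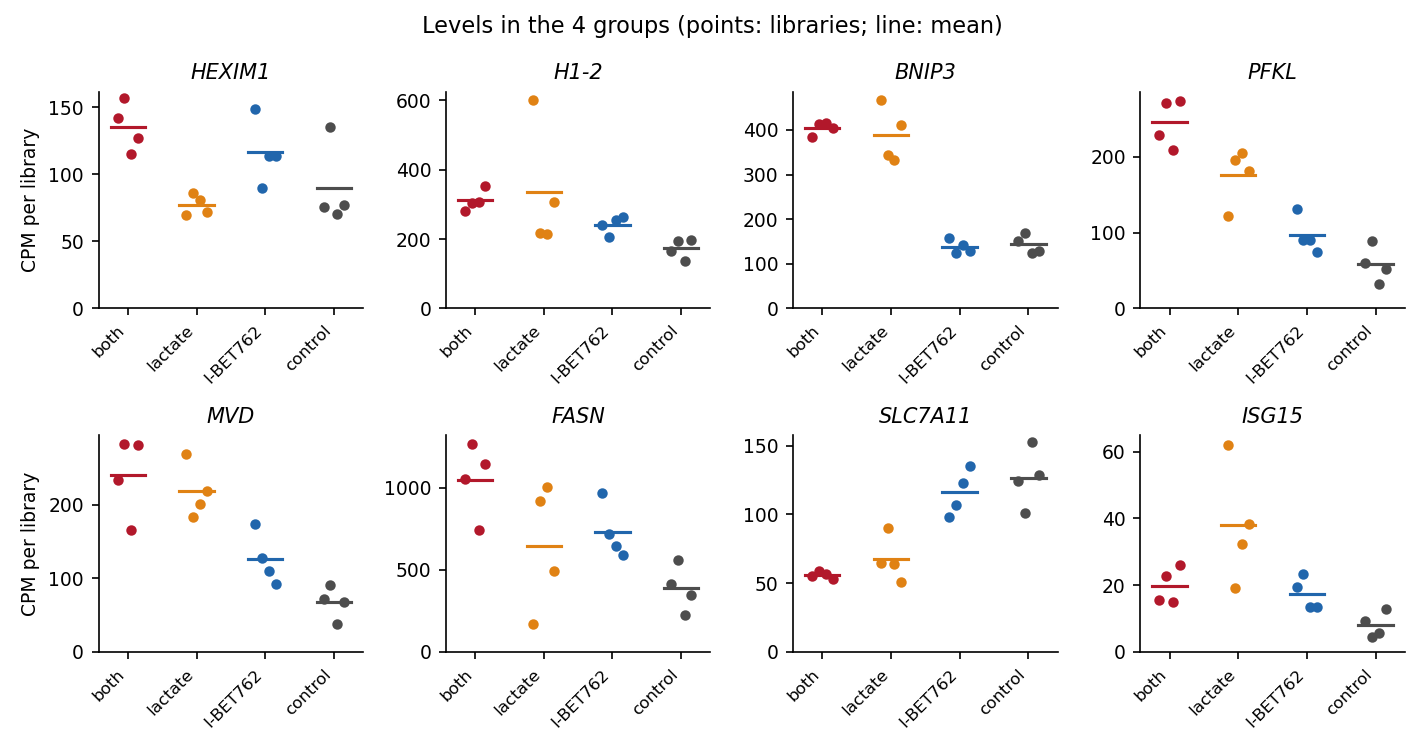
CPM per library (vertical, from 0) of 8 genes in the libraries given both treatments, lactate alone, I-BET762 alone and neither (control), from left to right; points are libraries and lines are means. BNIP3, at 384.5 to 415.5 CPM with both treatments, overlaps the lactate group, as does SLC7A11, while HEXIM1 control replicate 2 stands above the other controls.

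Whether the combination differed from the sum of the single treatments on the log2 scale was tested as an interaction in that fit. None of 14690 genes passed in edgeR (smallest adjusted p = 0.7), 894 (6.09%) had an unadjusted p under 0.05, and DESeq2 and limma-voom called none. ISG15 and PITX1, among the 4 genes with the smallest p, had estimates below that sum. ISG15, a ubiquitin-like protein induced by interferon, stood at 15.5, 22.8, 15.1 and 26.2 CPM with both treatments, 62, 19.3, 32.2 and 38.4 CPM with lactate alone, 19.4, 23.4, 13.4 and 13.6 CPM with I-BET762 alone, and 9.3, 4.6, 5.6 and 13 CPM in control (interaction -2.02 on the log2 scale, unadjusted p = 0.000606 and adjusted p = 0.7 in edgeR). PITX1, a homeobox transcription factor, had an interaction of -1.3 (adjusted p = 0.7 in edgeR). Against control, both treatments gave PITX1 a log2 fold change of 0.79 (adjusted p = 0.0146), which turned to -0.36 (adjusted p = 0.0157) after GC content correction with the block.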

How the data were processed

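The deposited table holds raw gene counts from the authors: polyadenylated RNA was sequenced from 1 end, per the labels' protocols, with STAR 2.6.1c, DESeq and builds GRCh38.p12 and hg38 named in the submitters' processing notes. For the counting tool, its strand setting and the annotation: not given in the sources used here. Genes with at least 10 counts by edgeR's filterByExpr (minimum total 15) were kept; these hold at least 99.83% of every library's counts. TMM scaled the library sizes. The quasi-likelihood test of edgeR 4.0.16 (R 4.3.3) was run on 8 libraries with 6 residual degrees of freedom and Benjamini-Hochberg adjustment. The interaction was fitted on 16 libraries with 12. limma 3.58.1 (voom) and DESeq2 1.42.0 were alternatives; for the interaction both were chosen after seeing the data. GC content, from an annotation that matched 99.47% of tested genes, and exon length were corrected with splines of 5 degrees of freedom. Scripts were tested on simulated data.

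The members and gene lists were chosen with earlier results of these data known, so the lists are not independent evidence. Named genes were a fixed set of 15; the 10 largest rises and falls where the mean reached 5 CPM and groups did not overlap; from each described list, the 4 or fewer genes of lowest p; and the 4 smallest interaction p. Others are marked where they stand. Some genes that these rules chose are not reported here.

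Same-numbered libraries of the groups deviated together (correlations across genes 0.103, 0.214, 0.46 and 0.397), which by the rule used pairs them. Of the 4 treated libraries 3 correlated best with their own number, and replicate 1 correlated more with control replicate 2 (0.324). The pairing comes from the data, and the labels do not say what a number shares.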

Additional observations from a re-analysis of the deposited data

Results flagged for a closer look

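In 12 of 272 groups of 4 libraries tested, 1 library stood far from the other 3 by Dixon's criterion. The criterion marks about 1 in 20 groups of independent draws. The groups here share the same libraries and are not independent, so whether 12 exceeds chance was not tested. Control replicate 2 stood apart for HEXIM1 (135.4 CPM, against 69.3 to 77.6 CPM in the other controls), PLIN2 (42.6 CPM, against 63.6 to 67.1), TFPI2 (23.7 CPM, against 42.7 to 46.3) and GPAT3 (50.4 CPM, against 63.9 to 66). Control replicate 3 was low for NELFA (19.6 CPM, against 31.9 to 33) and NDUFS8 (28.5 CPM, against 49 to 53.1). Control replicate 4 was low for MT-CO2 (2087.3 CPM, against 2351 to 2392.4), for the mitochondrial share of counts (2.88%, against 3.47 to 3.59%) and for the correlation across genes of deviation with exon length (-0.09, against 0.16 to 0.21). With both treatments, replicate 1 was high for LDHB (76 CPM, against 70.1 to 71) and FAM162A (59.3 CPM, against 51.2 to 51.9), and replicate 3 low for H2BC4 (14.3 CPM, against 17.7 to 18.1).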

How the results depend on the processing

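The number of changed genes stayed within 1.5 times of 4709 under every alternative run but the fit of all 16 libraries, which gave 3045; the cause was not tested. Leaving out 1 library gave 3188 to 5315. With the replicate number as a block 6249 genes changed, which ended no call among the 123 changed genes that the naming rule chose. No gene passed for the interaction under any alternative run. Log2 fold changes that turned sign were those of MYC (RLE -0.01, total counts 0, no filter -0.01, GC content correction -0.09 with or without the block, with exon length -0.11, DESeq2 -0.01, 16 libraries -0.01, leaving out 1 library -0.07 to 0.04, without replicate 2 in both groups -0.05), PLIN2 (-0.11 to 0.1 leaving out 1 library, -0.03 without replicate 2 in both groups), PDK4 (GC content correction 0.08 with or without the block, with exon length 0.05, leaving out 1 library -0.22 to 0.13) and PITX1 (GC content correction -0.37, with the block -0.36, with exon length -0.38). Of these only PITX1 was called in either direction. GC content correction without the block also ended the calls of DLAT, PNPLA2, H1-10, ISG15 and ACLY (adjusted p = 0.0969, 0.0791, 0.0582, 0.0617 and 0.0504). The fit of 16 libraries ended those of FOSL1, DKC1, OAS3, SLC7A1 and NFE2L2 among others. Genes of a few CPM rest on few counts.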
